A study of Caenorhabditis elegans with 2 samples.

Results

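The 9 genes described here encode the enzymes and transporters that make, store and take up the monoamine transmitters of Caenorhabditis elegans: tph-1, cat-1, cat-2, cat-4, bas-1, mod-5, dat-1, tdc-1 and tbh-1. They were chosen by name from the pathway, out of 19973 protein-coding genes on the nuclear chromosomes, and each was looked up in the Ensembl annotation of the WBcel235 (ce11) build. Binding of the POU homeodomain factor UNC-86 near them was read from lists of ChIP-seq peaks. The material was whole hermaphrodites of strain OP476, which carry the unc-119(tm4063) allele on chromosome III and the integrated transgene wgIs476, in which UNC-86 ends in a C-terminal tag of GFP and FLAG. Late embryos were taken 3.5 hours after eggs had been bleached for synchrony, and chromatin was pulled down with an antibody to GFP. The 2 libraries are biological replicates of this single group, both from the same transgenic line, so there is no second genotype or stage to compare with. In chromatin of whole animals, binding in few cells and weak binding in many cells cannot be told apart, and the files hold no expression values against which the presence of monoaminergic neurons could be checked.

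Serotonin and dopamine are made by hydroxylating an aromatic amino acid with the help of a pterin cofactor and then removing its carboxyl group. For tyramine and octopamine, tyrosine is decarboxylated directly, and tyramine is then hydroxylated to octopamine. The amines are pumped into synaptic vesicles, and released serotonin and dopamine are taken back by transporters of the plasma membrane. UNC-86 is known to act in the serotonergic neurons NSM and HSN, where it is needed for the expression of serotonin pathway genes, and those neurons make up a very small share of the cells of an embryo.

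Each list gives, for every entry, a summit and a signal, which is the authors' own value and is used here to describe and rank entries within its list. The list of peaks that passed the irreproducible discovery rate (IDR) analysis held 816 entries. The pooled list, made from both replicates together, held 12784, the list of replicate 1 17498 and that of replicate 2 18470. The last 3 lists hold background regions as well as peaks: a −log10 q value of 1.3 or more (q of 0.05 or less) was reached by 1097 pooled entries, 1163 entries of replicate 1 and 853 of replicate 2. A summit was counted for a gene when it lay within 5 kb of any annotated transcript start of it.

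Of the 9 monoamine genes, 2 had an IDR summit within 5 kb, cat-1 and cat-2, against 9.93% of all protein-coding genes. Both summits lay more than 2 kb from the start of the gene in question. That at cat-1 was in an intron beside a tRNA gene, and that at cat-2 was in an intron of another gene, scc-2, close to one of its starts. Neither tph-1, which encodes the enzyme specific to serotonin synthesis, nor cat-4, bas-1, mod-5, dat-1, tdc-1 or tbh-1 had one. Which gene either summit serves was not tested. The sequences under the 2 IDR summits are shown because these were the only IDR summits within 5 kb of the 9 genes. Each is 151 bases of the forward strand of WBcel235 centred on the summit, X:5707931-5708081 for cat-1 and II:255279-255429 for cat-2, and the capitals mark the longest stretch common to both, GAGCGGCCGC of 10 bases.
cat-1 intron: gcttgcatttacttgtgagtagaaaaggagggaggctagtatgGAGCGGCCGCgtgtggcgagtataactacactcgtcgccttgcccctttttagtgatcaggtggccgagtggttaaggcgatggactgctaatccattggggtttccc
cat-2 upstream region: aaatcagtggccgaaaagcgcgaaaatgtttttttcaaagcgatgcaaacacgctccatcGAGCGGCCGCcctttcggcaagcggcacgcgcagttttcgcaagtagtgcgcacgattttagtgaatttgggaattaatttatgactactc

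The shared stretch was found by looking at these windows, so its presence in them is a description. On either strand it occurred in 2 of 816 windows of 151 bases at IDR summits (0.245%), those shown, in 2 of 12784 at pooled summits (0.0156%), in 0 of 19973 promoter windows of the same length, and at 26 places in the nuclear genome. It starts 32 bp to the left of the cat-1 summit and 15 bp to the left of the cat-2 summit. The shorter word GCGGCCGC inside it was in 6 IDR windows (0.735%), among them the 2 shown, in 0.188% of pooled windows and in 0.100% of promoter windows. The words GAGCGGCC and AGCGGCCG were in 0.858% and 0.735% of IDR, 0.149% and 0.297% of pooled, and 0.0451% and 0.0701% of promoter windows. These words were cut from the shared stretch, so their shares are a description too. The GC content of the windows was 52.98% at cat-1 and 47.7% at cat-2.

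cat-1 encodes the vesicular monoamine transporter, which loads serotonin, dopamine and the other amines into vesicles, and it lies on the minus strand at X:5705690-5710737. Its IDR summit, at position 5708006 in the entry X:5707786-5708225, was inside the gene, 2619 bp downstream of the nearer of its 2 starts. The signal there was 164.8 in the IDR and pooled lists, 96.3 in replicate 1 and 69.8 in replicate 2. It ranked 118 of 816 in the IDR list, 86 of 17498 in replicate 1 and 172 of 18470 in replicate 2, and the replicates' summits were 25 bp apart, so the peak was strong in each library on its own. As high a pooled signal within 5 kb was found at 305 protein-coding genes (1.53%).

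The tRNA gene beside it, WBGene00022974, a tRNA-Ser gene of 82 bp in RefSeq, runs at X:5708028-5708109 on the plus strand, opposite to cat-1. The pooled summit was 22 bp to the left of its 5′ end, that of replicate 2 was 13 bp to the left, and that of replicate 1 was inside it. The right part of the cat-1 sequence printed above is the beginning of this tRNA gene. Of the 816 IDR summits, 149 (18.3%) lay within 300 bp of a tRNA gene, so the position is a common one in this list. The tRNA gene has 7 identical copies in the annotation, itself included, and none of its 53 stretches of 30 bases was found only once in the genome, whereas 95 of the 122 stretches in the 151 bases shown were (77.9%). No source used here says how reads from repeated sequence were placed, and the part of the repeat in the signal was not tested.

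A further copy, WBGene00022975, at X:5709375-5709456, is in an intron of cat-1 as well, and the nearest summits to it were 1163 bp away in the pooled list, 1335 bp in replicate 1 and 1360 bp in replicate 2. Identical copies within the same host gene differed in whether a summit was called at them. How reads were divided between these copies is not known, and the reason for the difference was not tested. A tRNA-Lys gene upstream of cat-1, WBGene00022976, had a weak summit of replicate 1 at 45 bp (signal 21.8, rank 3310), while replicate 2 came no nearer than 616 bp (signal 15.9, rank 11983). No list had a summit within 2 kb of a cat-1 start, on either side.

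cat-2 encodes tyrosine hydroxylase, the enzyme that begins dopamine synthesis, and it lies on the plus strand at II:257819-261074, nested inside scc-2 (II:240705-263663, minus strand), which encodes the loader of the cohesin ring. The IDR summit at 255354, in the entry II:255134-255573, was 2465 bp upstream of the first of the 3 starts of cat-2 and 158 bp upstream of a start of scc-2. The signal was 156.2 in the IDR and pooled lists, 71.2 in replicate 1 and 84.9 in replicate 2. It ranked 134 of 816 in the IDR list, 176 in replicate 1 and 111 in replicate 2, and the replicates' summits were 3 bp apart. Replicate 1 ranked the cat-1 peak above the cat-2 peak and replicate 2 the reverse, so the order of these peaks is not settled by 2 libraries. No small RNA gene was near, the closest lying 35563 bp away, and all 122 stretches of 30 bases in the window were found once. The nearest transcript start thus belonged to scc-2, and which gene the site serves was not tested.

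**Figure D1:**
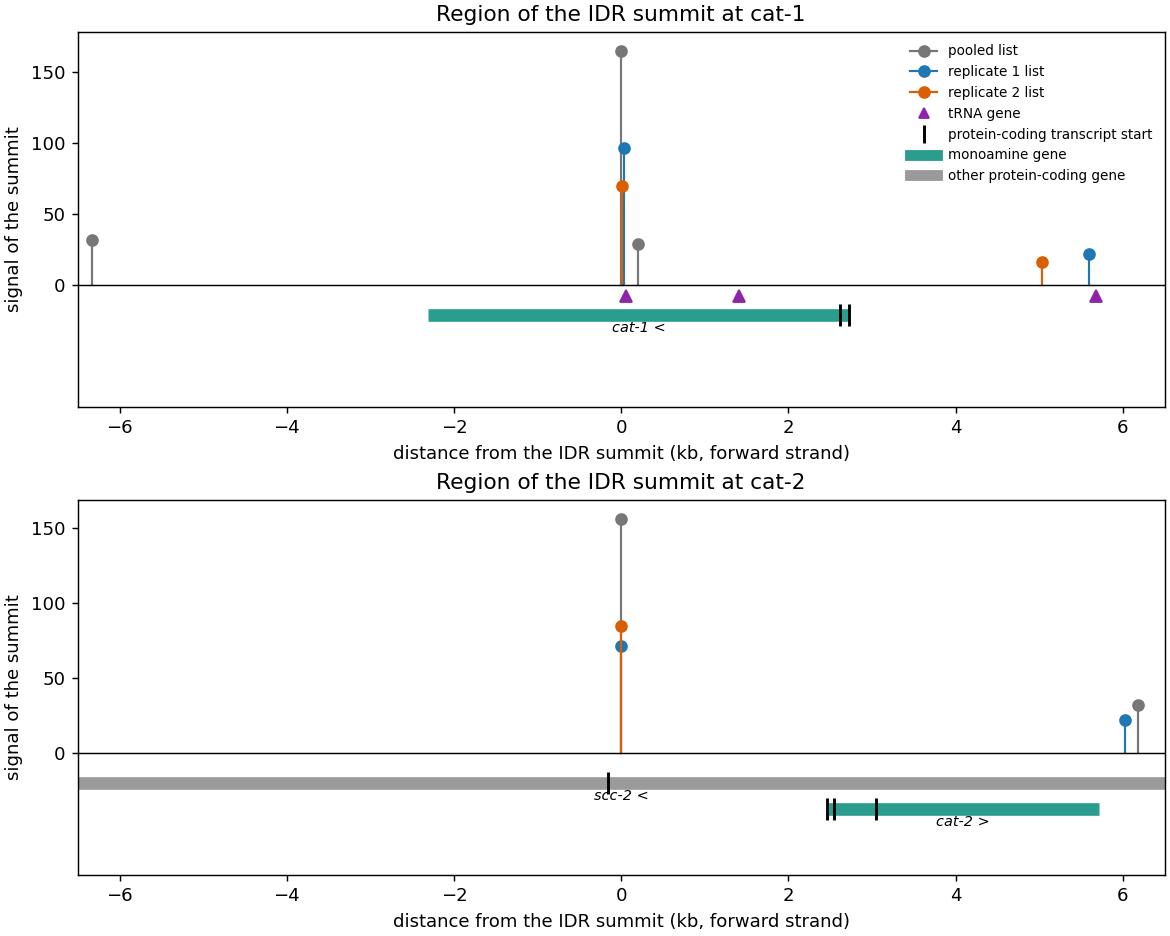
Signal (vertical axis, the authors' value) of every summit of the pooled, replicate 1 and replicate 2 lists around the IDR summits at cat-1 (top) and cat-2 (bottom), against the distance in kb from that summit on the forward strand; bars below the axis are genes, ticks their transcript starts and triangles tRNA genes. At cat-1 the 3 lists peak beside a tRNA gene within the gene, with signals of 164.8, 96.3 and 69.8, and at cat-2 they peak beside a start of scc-2, with 156.2, 71.2 and 84.9.

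Counting every entry, 7 of the 9 genes had a pooled summit within 5 kb (63.1% of all protein-coding genes), 7 had one of replicate 1 (75.8%) and 8 one of replicate 2 (77.4%). Those shares of all genes are high, and the counts of the monoamine genes lay near them. Summits of both replicates within 100 bp of each other were found at 2 of the 9, again cat-1 and cat-2, where 31.5% of all genes had such a pair. The median monoamine gene had 1 pooled summit in reach, as did the median protein-coding gene.

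The 7 genes without an IDR summit had no entry that reached a q of 0.05. Their 9 pooled summits had signals from 26.2 to 36.5, where the pooled list began at 25.6 and had a median of 31.8, and ranks from 3820 to 11931. In replicate 1 they had 6 summits with signals from 15.6 to 25.5, and in replicate 2 13 summits with signals from 14.1 to 23.6. The highest −log10 q value among all of these was 0.671, below the 1.3 that corresponds to a q of 0.05, and none of the replicates' summits had a partner within 100 bp in the other replicate. Over the full lists, 21.7% of the entries of replicate 1 and 20.5% of those of replicate 2 had such a partner.

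**Figure D2:**
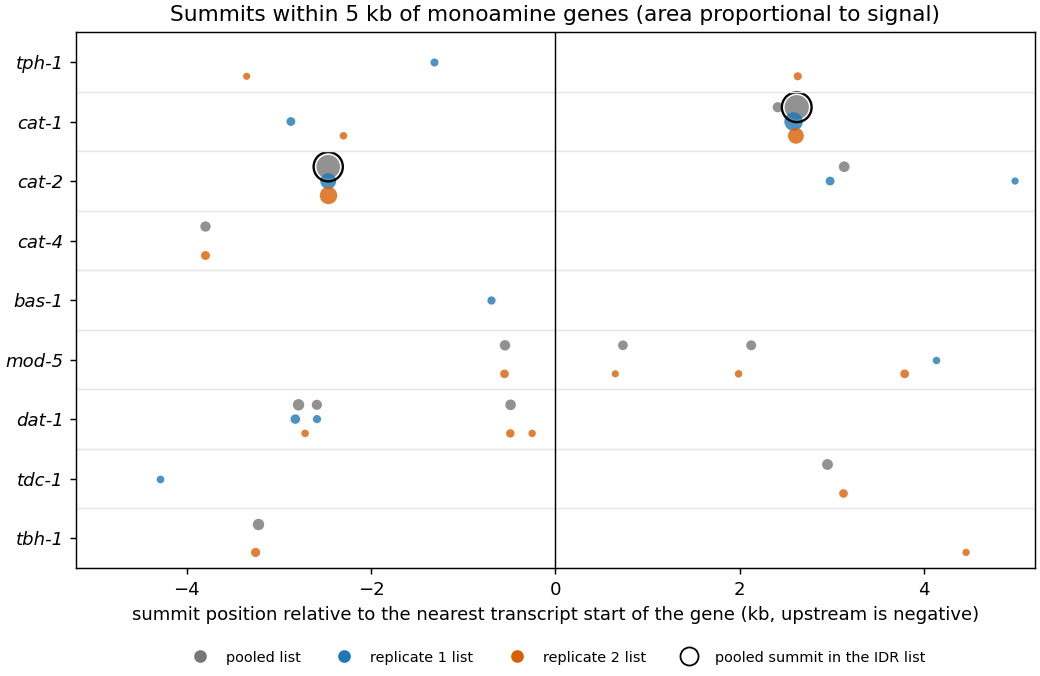
Position of each summit within 5 kb of the 9 genes (horizontal axis, kb from the nearest transcript start, upstream negative); the area of a point is proportional to its signal, colours give the list, and open circles mark pooled summits that are in the IDR list. The large points are those of cat-1, 2.62 kb downstream of a start, and of cat-2, 2.46 kb upstream. The summits of the other genes are small, and none of the replicates' has a partner within 100 bp in the other replicate.

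The serotonin genes come next by role. tph-1 encodes tryptophan hydroxylase, the enzyme specific to serotonin synthesis (II:7549335-7551983, plus strand). Neither the IDR list, whose nearest summit was 159.4 kb from a start, nor the pooled list, at 18.7 kb, reached it. Replicate 1 had a summit 1321 bp upstream, with signal 18.04 and rank 6427, in a coding exon of the neighbouring gene fbxa-224. Replicate 2 had none there, but summits 3350 bp upstream (signal 14.1, rank 16741) and 2630 bp downstream (signal 18.2, rank 7841). The replicates therefore gave no common place at tph-1.

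bas-1 encodes the aromatic amino acid decarboxylase that makes both serotonin and dopamine (III:5612274-5614660, plus strand). The single summit in reach was that of replicate 1, 695 bp upstream of the start, between protein-coding genes, with signal 18.9 and rank 5418. Replicate 2 had its nearest summit 7807 bp upstream, and the pooled list 8048 bp downstream. The nearest IDR summit, outside the rule, was 10059 bp upstream, with signal 205.9 and rank 64, and it lay 36 bp from the snoRNA gene C05D2.15.

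cat-4 encodes GTP cyclohydrolase I, which makes the pterin cofactor that the tryptophan and tyrosine hydroxylases need (V:10564880-10566464, plus strand). Its pooled summit, 3801 bp upstream with signal 29.9 and rank 7845, lay in an intron of the collagen gene col-152, 158 bp from a start of it. Replicate 2 had a summit 1 bp from it (signal 22.2, rank 3640), and that of replicate 1 nearest to it was 9844 bp away, so this place was matched in replicate 2 alone. At the edge of the rule, a further pooled summit lay 5373 bp upstream (signal 32.2) and was not counted.

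mod-5 encodes the serotonin reuptake transporter (I:3034716-3047794, minus strand). The pooled list had 3 summits in reach, 547 bp upstream (signal 30.6), 733 bp downstream (26.2) and 2125 bp downstream (27.6), the last 2 in introns of mod-5. Replicate 2 had 4, of which that 552 bp upstream had signal 20.9 and rank 4656. Replicate 1 had a single summit, 4129 bp downstream, with signal 15.6 and rank 10373, which was 339 bp from the nearest of replicate 2. The summit just upstream of mod-5 thus had no counterpart in replicate 1, whose nearest summit was 4676 bp away.

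Of the remaining dopamine gene, dat-1, which encodes the dopamine reuptake transporter (III:9242975-9246802, plus strand), the pooled list had 3 summits upstream. The strongest, at 2787 bp, had signal 36.5 and rank 3820 and was 175 bp upstream of a start of the next gene, saeg-2. It was the 1 place at these 7 genes with summits of both replicates within 100 bp of the pooled one, at 35 bp in replicate 1 (signal 25.5, rank 1919) and at 71 bp in replicate 2 (signal 15.96, rank 11937). The replicates' summits were 106 bp from each other, just outside the distance that counts as the same place. Nearer to dat-1, the pooled summit 486 bp upstream (signal 31.7, rank 6455) matched a summit of replicate 2 at 3 bp (signal 19.8, rank 5744) and that of replicate 1 nearest to it was 2101 bp away.

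tdc-1 and tbh-1 act in turn to make tyramine and octopamine, often described as invertebrate counterparts of noradrenaline and adrenaline. tdc-1 encodes tyrosine decarboxylase (II:8270597-8273615, plus strand) and had a pooled summit 2947 bp downstream, at the 3′ end it shares with gei-14, with signal 33.1 and rank 5524. The nearest summit of replicate 2 was 173 bp from it (signal 20.8) and that of replicate 1 was 7243 bp from it. tbh-1 encodes tyramine beta-hydroxylase (X:15500256-15504895, minus strand) and had a pooled summit 3226 bp upstream with signal 36.5 and rank 3841, which was 241 bp upstream of a start of zipt-7.2. Replicate 2 had a summit 27 bp from it (signal 23.6, rank 2867), and that of replicate 1 was 10730 bp from it. In 4 of the 5 genes with weak pooled summits (cat-4, mod-5, tdc-1 and tbh-1) the nearest replicate summit was thus that of replicate 2.

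By role, 1 of the 6 synthesis genes (cat-2) and 1 of the 3 transporter genes (cat-1) had an IDR summit, against 9.93% of all genes. In the pooled list the counts were 4 of 6 and 3 of 3, against 63.1% of all genes, and no difference from that share was tested. Of the 13 pooled summits at the 9 genes, 3 lay within 1 kb of a start of the monoamine gene in question, 2 at mod-5 and 1 at dat-1, and for 6 of the 13 that gene had the nearest protein-coding start. The others were nearer to a neighbour such as scc-2, col-152, saeg-2, gei-14 or zipt-7.2.

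**Figure D3:**
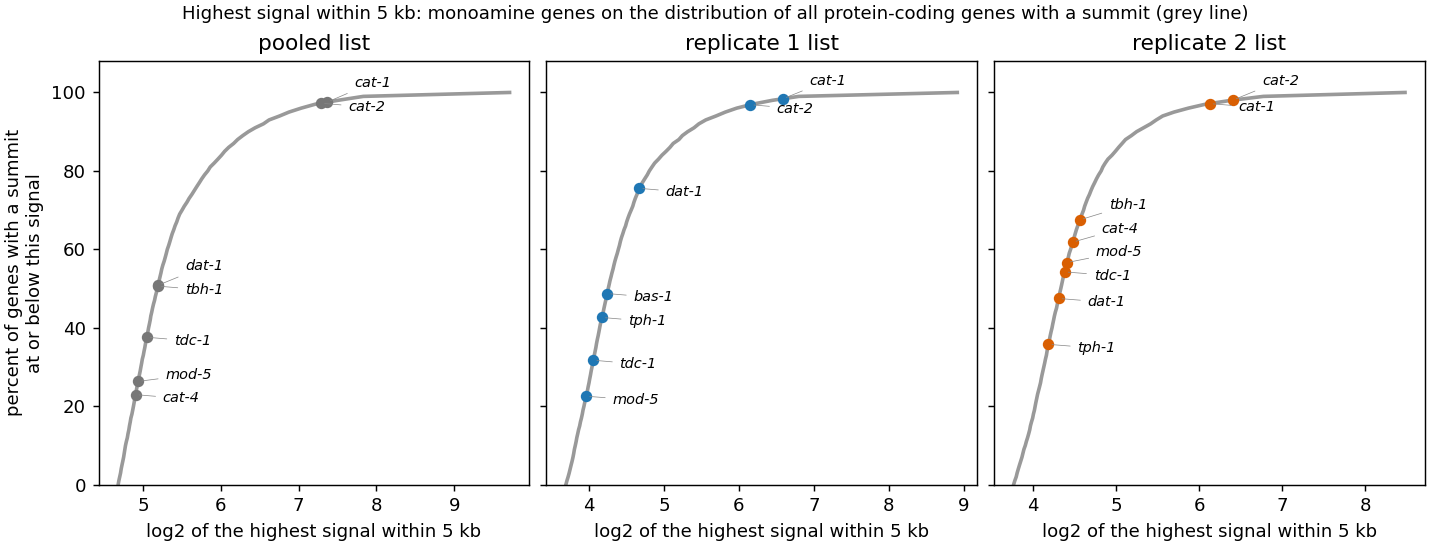
Highest signal within 5 kb of each monoamine gene that had a summit (points, log2 scale) placed on the cumulative distribution of that value over all protein-coding genes with a summit in the same list (grey line; vertical axis, percent of those genes). cat-1 and cat-2 lie near the top in all 3 lists, and the other genes lie on the steep part of the curve, with dat-1 highest among them in replicate 1 and tbh-1 in replicate 2.

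The POU class IV pattern ATAATTAAT, a sequence bound by relatives of UNC-86, was searched on both strands, together with its relaxed form ATNATTAAT, the octamer ATGCAAAT, the mec-3 type subsite AATGCAT and the homeodomain core TAATTA. The relaxed form holds every match of the POU class IV pattern, and that pattern holds the homeodomain core. In windows of 100 bp to each side of the 13 pooled summits, the first 4 patterns had no match, and the homeodomain core was in 1, at tdc-1. The shares over all 12784 pooled windows were 0.993%, 2.03%, 1.74%, 3.15% and 9.25% in the same order. None of the 5 was in the windows of the IDR summits at cat-1 and cat-2, or in the 300 bases about the outermost start of any of the 9 genes, where over all genes they were found in 1.69%, 4.05%, 2.86%, 4.52% and 15.5%. With 13 windows and shares this low, these counts of 0 say only that the letters were not there.

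Within 5 kb of a start, the POU class IV pattern was present at 2 of the 9 genes, tph-1 with 2 matches and mod-5 with 1, against 34.9% of all protein-coding genes. A match upstream of tph-1 lay under the weak summit of replicate 2 noted above. It is the only POU class IV match within 100 bp of any summit counted for these genes, so it is shown, with 16 bases to each side and the pattern in capitals, from the forward strand of WBcel235 at II:7545908-7545948. The match starts 61 bp to the left of that summit, which ranked 16741 of 18470, and neither the pooled list nor replicate 1 had a summit there. Of the other patterns, the mec-3 type subsite was found at the replicate 1 summit of mod-5. The octamer was found at a replicate 2 summit of mod-5. Shares over all windows of the replicate lists were not computed, so these matches have no background beside them.
tph-1 upstream match: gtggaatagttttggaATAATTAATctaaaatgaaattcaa

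The other genes of the pathway were counted in the same way, from lists chosen with earlier results of these data known. Among receptor genes, none of 6 for serotonin, none of 7 for dopamine and 1 of 7 for octopamine and tyramine had an IDR summit within 5 kb. The 1 was ser-2, a tyramine receptor gene, with a summit in an intron 679 bp downstream of a start (X:15297324-15297763, signal 75.6, rank 586). It lay within the tRNA-Ile gene WBGene00009936, which has 19 identical copies, itself included. The summit ranked 369 in replicate 1 (signal 50.8) and 1941 in replicate 2 (signal 26.1). A further pooled summit of ser-2, not in the IDR list, lay 75 bp upstream of a start (signal 39.9, rank 2800). Replicate 2 had one 85 bp upstream (signal 28.6, rank 1393), above its summit at the tRNA gene, and replicate 1 had none there. Of the 3 IDR summits at genes for the synthesis, transport or reception of monoamines, 2 were at intronic tRNA genes. Over all 816 IDR summits, 18.3% lay within 300 bp of a tRNA gene, and no difference from that share was tested. The IDR summits at the transcription factor genes unc-86 and egl-18, given below, lay 7560 bp or more from any small RNA gene.

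In the pooled list, 3 of 6 serotonin receptor genes, 5 of 7 dopamine receptor genes and 7 of 7 octopamine and tyramine receptor genes had a summit, against 63.1% of all genes. The strongest were low: ser-1 had signal 38.0 at 52 bp downstream of a start, ser-5 had 34.1 at 222 bp upstream and ser-4 had 33.9 at 1852 bp downstream. Among dopamine receptor genes, dop-5 had 40.3, dop-6 had 40.2 and dop-3 had 33.8, and octr-1 and ser-3, octopamine receptor genes, had 43.9 and 40.6. None of these passed into the IDR list, which began at 64.7.

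Genes of amine breakdown and conjugation, the monoamine oxidase and catechol-O-methyltransferase families, had a pooled summit in 5 of 8 cases and none in the IDR list, with amx-1 highest (signal 38.9, 2071 bp upstream of it and nearer to dpy-27). Genes of the pterin cofactor and of related hydroxylases and decarboxylases also had 5 of 8 and none. Their strongest were pcbd-1, which encodes a pterin carbinolamine dehydratase, with signal 48.6 at 110 bp downstream of a start, ptps-1 with 46.2 and pah-1, the phenylalanine hydroxylase gene, with 46.1. Those of ptps-1 and pah-1 were nearer to ain-2 and let-19. For acetylcholine, glutamate and GABA identity genes the counts were 7 of 13 and none, the highest being ace-3 (40.3), unc-25 (39.1) and ace-4 (34.2). Over all genes the shares were 63.1% in the pooled list and 9.93% in the IDR list, so the counts of these 3 lists were near the background.

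Transcription factor genes of serotonergic and dopaminergic neurons had an IDR summit in 2 of 10 cases, against 9.93% of all genes. Both replicates had summits at the same place in 7 of these 10, against 31.5% of all genes. The same count was 1 of 6 for serotonin receptors, 2 of 7 for dopamine receptors, 3 of 7 for octopamine and tyramine receptors, 2 of 8 for breakdown, 3 of 8 for cofactor and related enzymes and 3 of 13 for the acetylcholine, glutamate and GABA genes. The transcription factor genes with an IDR summit were unc-86 itself and egl-18, a GATA factor gene. unc-86 had 4 IDR summits in reach (signals 71.0 to 81.1). The strongest (81.1) and the weakest (71.0) of these were nearer to a start of C30A5.16 than to one of unc-86. egl-18 had 1, in an intron (signal 68.5, rank 729). ceh-20, a Pbx-type homeobox gene, came next in the pooled list, 904 bp upstream of a start, with signal 53.7 and rank 1244. The pooled signals at cat-1 (164.8) and cat-2 (156.2) were above each of those at unc-86. The transgene wgIs476 adds unc-86 sequence to these animals, and its part in the summits and signals at unc-86 was not tested.

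**Figure D4:**
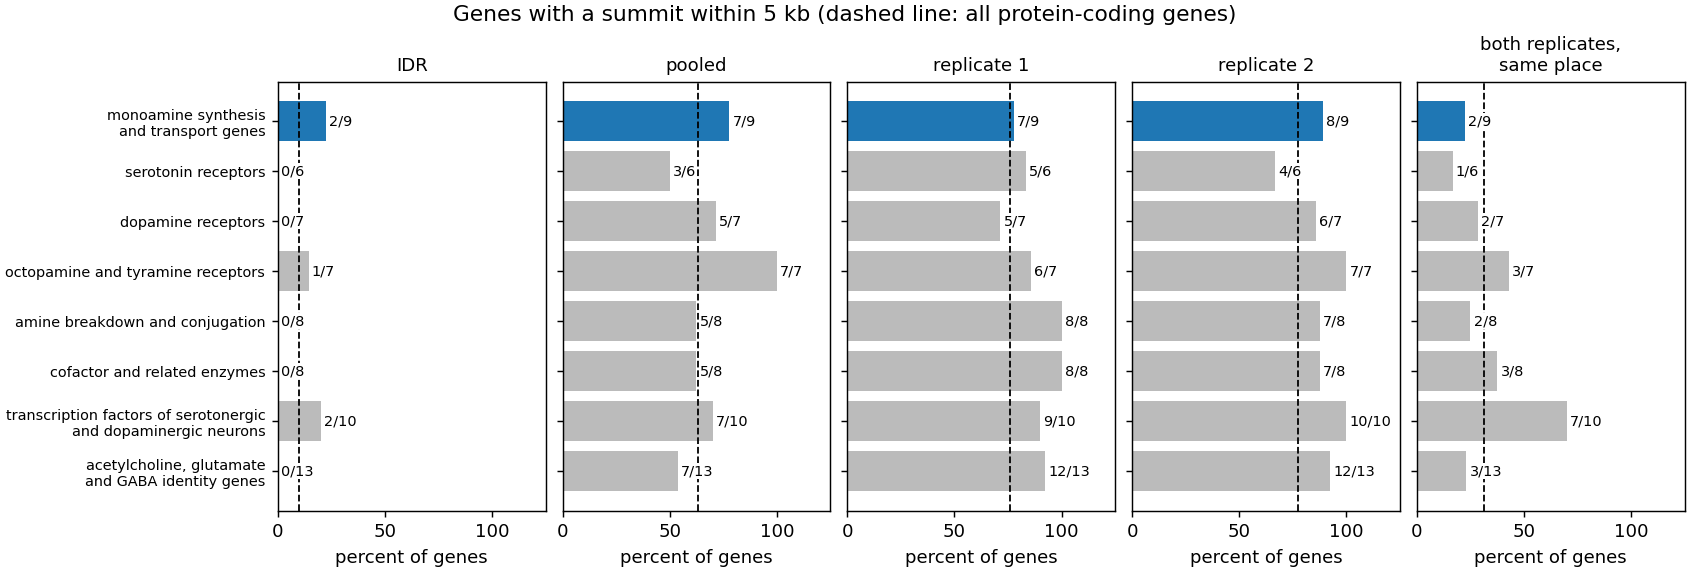
Percent of the genes of each list (bars, with counts) that had a summit within 5 kb in the IDR, pooled, replicate 1 and replicate 2 lists, and summits of both replicates within 100 bp of each other; the dashed line is the share of all 19973 protein-coding genes. The monoamine genes (blue) had 2 of 9 in the IDR list, and the transcription factor genes had 7 of 10 in the last panel. Counts are not adjusted for the length of sequence in reach of each gene.

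The protein-coding genes whose highest signals in the pooled, replicate 1 and replicate 2 lists were nearest to those of cat-1, by Euclidean distance of log2 signals among the 10915 genes with a summit in all 3, were chaf-2 and Y71G12B.30, which share a peak, and sup-35. The distance was 0.0769 for the first 2 and 0.120 for sup-35, whose peak Y48A6C.4 shares. The chaf-2 peak had signals of 162.6, 91.6 and 70.7 and lay 214 bp upstream of a start, far from any small RNA gene. That of sup-35 had 153.6, 93.5 and 67.7 at 344 bp upstream, and it was 1086 bp from the snoRNA gene Y48A6C.10. Peaks of the strength found in the intron of cat-1 were thus also found shortly upstream of starts.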

How the data were processed

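The lists of peaks used here were deposited by the authors in narrowPeak form, and reads were not analysed here. Per the file headers, each replicate list and the pooled list were called from alignments with a control and hold peaks with background regions, and the IDR list was made from those 3. No source used here names an aligner, a peak caller, the threshold of the IDR step or the read depth, so no interval that needs depth is given. The deposited signal is the authors' value per entry, and the deposited −log10 q value is per entry within its list. The ce11 lists were used, and the ce10 lists were not. Ranks are of signal within a list. Starts came from Ensembl release 115 and sequences and tRNA products from RefSeq, both WBcel235, and positions are 1-based. Counts of genes are descriptions with no test. All 9 genes were described, and of the other lists those with an IDR summit and up to 3 with the highest pooled signal, with the 3 genes nearest in signal to the monoamine gene of highest pooled signal. The genes and lists were chosen with earlier results of these data known. The assignment of summits to genes was tested on simulated positions. Computations used Python 3.11.15, numpy 2.4.6, pandas 2.3.3 and matplotlib 3.10.9.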

Additional observations from a re-analysis of the deposited data

How the results depend on the processing

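Alternatives changed the reach, the starts, the rule for assigning a summit to a gene, the entries, the pairing distance or the windows. Shares of all genes stand in parentheses. Within 1 kb and 2 kb of a start, 0 and 0 of the 9 genes had an IDR summit (4.07% and 5.65%), 0 and 0 had summits of both replicates at the same place (12.3% and 17.7%), and 2 and 2 had a pooled summit (29.1% and 40.7%). Replicate 1 then gave 1 and 2 (35.8% and 50.7%), and replicate 2 gave 2 and 2 (37.1% and 52.6%). Within 10 kb, both replicates met at 4 genes, cat-1, cat-2, bas-1 and dat-1 (48.5%), and the IDR, pooled, replicate 1 and replicate 2 counts were 2, 8, 9 and 9 (16.3%, 81.8%, 91.5% and 92.5%). With pairs up to 250 bp apart, both replicates met at 3 genes (40.2%). Where a summit counted only for its nearest gene, cat-1 alone had an IDR summit, 1 of 9 (3.72%), and a pair of both replicates, 1 of 9 (14.5%), and the pooled, replicate 1 and replicate 2 lists each gave 3 (36.1%, 45.5% and 46.9%). With a q of 0.05 or less, or with as many entries as the IDR list, each of these 3 lists gave 2, cat-1 and cat-2 (between 9.55% and 12.9%). Without replicate 1 or replicate 2, taking the other replicate's list in place of the pooled one and its top 816 entries in place of the IDR list, the IDR count was 2 and 2 (9.55% and 9.67%) and the pooled count 8 and 7 (77.4% and 75.8%). With the outermost start only, the median distance of the nearest summit went from 2947 to 2957 bp (pooled), from 2587 to 2697 bp (replicate 1) and from 2630 to 2672 bp (replicate 2). In windows of 250 bp to each side, the mec-3 type subsite was at 2 pooled summits, both at dat-1, in place of 0. Each change came with a different reach, list, set of starts, rule for assigning a summit to a gene, pairing distance or window. No paired analysis was possible because there is 1 group. Read depth is unknown, so a missing summit at a gene does not show that it was unbound.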
